A study of Mus musculus with 6 samples.

Results

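The transcripts of 10 genes that carry and build plasma lipoproteins were followed in primary hepatocytes of alcohol-fed WT and S100a16KO+/- mice. They are Apoa1, Apoa2, Apoa4, Apoa5, Apob, Apoc1, Apoc2, Apoc3, Apoe and Mttp, taken by gene name from a table of 25718 genes. The choice was made with earlier results of these data known. All 10 were listed and all 10 passed the filter on low counts, which left 15957 genes for testing. Of the 10, Apoa5 alone passed the genotype test at an adjusted p under 0.05, and it was 80.2% higher in S100a16KO+/- hepatocytes. The other 9 differed by less than 16% in the fit, and Apoa1 was the nearest of them to the threshold.

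Both groups had 3 libraries of poly(A) RNA, each from hepatocytes of male C57BL/6 mice aged 8 to 10 weeks. All mice had 5 days of control liquid diet, then 10 days with 5% ethanol in the diet and a gavage of 5 g/kg ethanol, and were killed 9 h later. S100a16KO+/- mice were heterozygous for an allele whose coding exons were removed through EIIa-Cre, a Cre driver active in the early embryo, so the loss was not restricted to hepatocytes. The sample labels call this group an S100A16 knockdown, and no pair-fed group was analysed here. The labels do not say that the libraries came from separate mice, although the study's methods give 3 per group, so p-values measure the spread between these libraries.

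Hepatocytes secrete triglyceride as very low density lipoprotein (VLDL), whose scaffold is ApoB. The transfer protein encoded by Mttp, working with protein disulfide isomerase, loads lipid onto ApoB as it enters the endoplasmic reticulum, and without that step ApoB is degraded. The small exchangeable apolipoproteins then set the fate of the particle in blood: ApoC2 activates lipoprotein lipase, ApoC3 and ApoC1 hold it back, ApoA5 promotes lipolysis, and ApoE is the ligand for uptake of remnants. ApoA1 and ApoA2 are the main proteins of high density lipoprotein, and ApoA4 is carried by chylomicrons and high density lipoprotein.

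Library totals of the deposited estimated counts ran from 67658095 to 71807834, with 17.0 to 21.1% of them from mitochondrially encoded genes. S100a16 itself had 1001, 1056 and 1107 counts in WT and 433, 390 and 366 in S100a16KO+/- libraries, a log2 fold change of -1.40. Hepatocyte markers summed to 115314 to 127200 CPM (counts scaled to library size) in WT and 111710 to 123575 CPM in S100a16KO+/- libraries. Along the second principal component (12.8% of the variance), WT replicate 1 (-10.6) and S100a16KO+/- replicate 2 (-16.9) stood apart from the other 4 libraries (4.32 to 8.83), and each had the highest mitochondrial share of its genotype. Where leaving out either or both of them changed the call of a member or of a gene named beside the members, the value without them is given. The same holds where a member's value moved by over 1.5 times.

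Compared per length, as FPKM (fragments scaled for transcript length and library size), the members spanned more than 2 orders of magnitude. Apoe, at 8299 ± 121 FPKM in WT and 8421 ± 267 in S100a16KO+/- (mean ± SD, n = 3 libraries, as for all means here), and Apoa2, at 8073 ± 262 and 7529 ± 231, led the order and overlapped in WT. Apoa1 followed at 6466 ± 191 and 7498 ± 329 FPKM. Its WT values were all below those of Apoa2, whereas in S100a16KO+/- the ranges of Apoa1 and Apoa2 overlapped. Apoc1 (1972 ± 143 and 1889 ± 127), Apoa4 (1213 ± 32.3 and 1114 ± 9.06) and Apoc3 (1083 ± 66.2 and 1109 ± 54.4) formed the middle of the order, and Apoa4 and Apoc3 overlapped in S100a16KO+/- only. Apob, whose transcript is far longer, reached 356 ± 17.2 and 333 ± 22.3 FPKM, Apoc2 161 ± 48.7 and 139 ± 14.0, and Mttp 50.4 ± 3.42 and 50.1 ± 2.35. Apoa5 moved in this order: at 586 ± 26.01 FPKM it was below Apoc3 in WT, while at 1062 ± 43.5 FPKM it overlapped Apoc3 in S100a16KO+/-. Apoe was in WT the 16th and Mttp the 611th most abundant gene by FPKM.

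**Figure D1:**
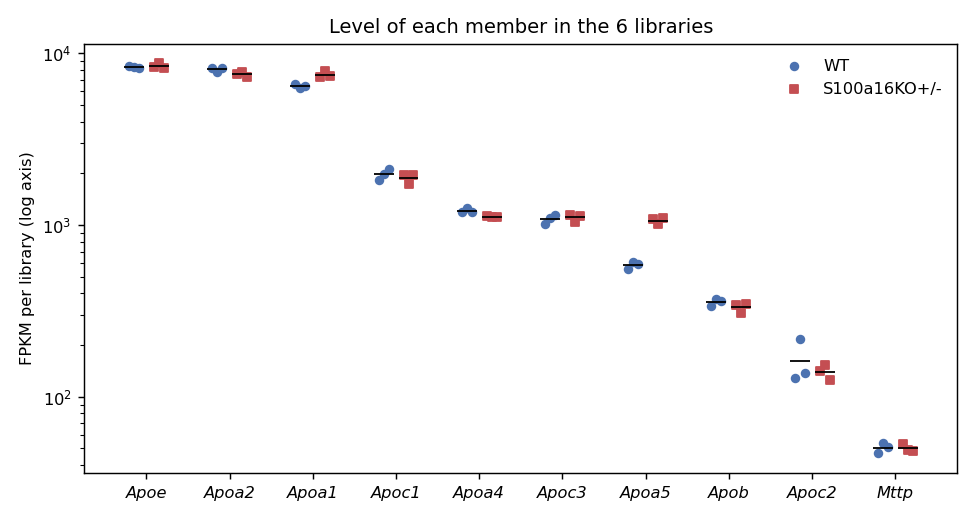
FPKM of the 10 members (log axis) in each of the 6 libraries, with WT and S100a16KO+/- as separate points. The 3 S100a16KO+/- points of Apoa5 lie at 1012 to 1093 FPKM, above the WT points at 557.6 to 608.6, whereas the points of Apoe, Apoc1, Apoc3 and Mttp intermix.

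Summed over members, FPKM was 28258 ± 268 in WT and 29144 ± 576 in S100a16KO+/-, 3.14% higher, and the members took 4.66% ± 0.0129 and 4.87% ± 0.0632 of all counts. Both sums gave p = 0.1 in a two-sided exact permutation test over libraries, the smallest value that 3 against 3 allows. As a share of counts other than the mitochondrially encoded ones, the difference was 2.94% (exact permutation p = 0.3). The FPKM difference was 2.02% without S100a16KO+/- replicate 2 and 2.24% without both libraries that stood apart.

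Across all genes tested, 22.8% passed an adjusted p under 0.05 (edgeR quasi-likelihood test, Benjamini-Hochberg adjustment), 11.6% as higher and 11.2% as lower in S100a16KO+/-. Among genes averaging at least 32 CPM, a level that all 10 members exceeded, the share was 48.4%. Of the members, 1 passed as higher and 0 as lower, and 4 had an unadjusted p under 0.05, as did 33.6% of all genes. Their median log2 fold change was -0.04, against 0.01 over all genes tested. An unadjusted p under 0.05 with a fold change of at least 2, met by 4.52% of genes, was met by 0 members. Genotypes did not overlap in TMM-scaled CPM for 4 members (Apoa5, Apoa1, Apoa4 and Apob), and for 37.9% of all genes. The number of members called was sensitive to the tool and to single libraries: DESeq2 called 4 (Apoa5 and Apoa1 higher, Apoa4 and Apob lower), and without WT replicate 1 and S100a16KO+/- replicate 2, an alternative added after the data were seen, 5 were called (Apoa5 and Apoa1 higher, Apoa2, Apoa4 and Apob lower).

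**Figure D2:**
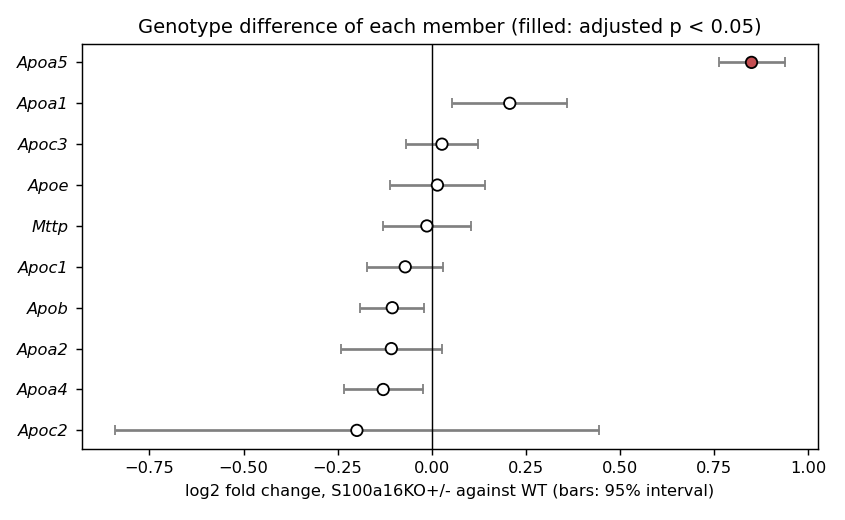
Log2 fold change of each member, S100a16KO+/- against WT, from the edgeR fit, with bars for the 95% interval and a filled point where the adjusted p was under 0.05. Only Apoa5, at 0.85, is filled, and the bar of Apoc2, at -0.20, is the widest.

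Apoa5 (ENSMUSG00000032079) encodes a scarce plasma protein that promotes triglyceride clearance by lipoprotein lipase. The gene spans 46268633 to 46271919 of chromosome 9 on its plus strand (GRCm38, used for all positions). It read 1658, 1663 and 1644 CPM in WT replicates 1 to 3 and 2980, 3011 and 2957 CPM in S100a16KO+/- replicates 1 to 3. Every S100a16KO+/- library was thus far above every WT library. In TMM-scaled CPM, the coefficient of variation was 0.603% in WT and 0.916% in S100a16KO+/-, where genes of at least 32 CPM had medians of 4.36% and 4.89%. In FPKM, which has no TMM scaling, Apoa5 spread more widely for its level, at 586 ± 26.01 and 1062 ± 43.5. The log2 fold change of Apoa5 in the fit was 0.85 (SE 0.04, adjusted p = 2.33e-09), a rise of 80.2% with a 95% interval of 69.6 to 91.5%. By absolute log2 fold change it ranked 1651 among all genes tested. It passed in all 17 alternative fits, with log2 fold changes of 0.84 to 0.86. An antisense transcript, Gm47544, lies wholly within Apoa5 exons, and it had at most 31 counts in any library.

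Apoa5 belongs to a cluster with Apoa1, Apoc3 and Apoa4 on chromosome 9, of which Apoa5 alone passed the genotype test. The promoter of Apoa5 is therefore shown with those of the other members of the cluster for which a window was at hand. The windows are from RefSeq on GRCm38.p6, plus strand, from 250 bases before to 50 bases after an annotated start site (for Apoa5 the more upstream of those listed), with matches to any of 8 searched motifs in capitals.
Apoa5, chr9:46268358-46268657: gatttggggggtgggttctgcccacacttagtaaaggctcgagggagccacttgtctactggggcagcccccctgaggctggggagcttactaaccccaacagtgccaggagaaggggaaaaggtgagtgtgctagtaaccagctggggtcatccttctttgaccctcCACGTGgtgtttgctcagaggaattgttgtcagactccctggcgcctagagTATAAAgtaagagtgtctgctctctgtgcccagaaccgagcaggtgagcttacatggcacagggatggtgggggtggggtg
Apoa1, chr9:46228380-46228679: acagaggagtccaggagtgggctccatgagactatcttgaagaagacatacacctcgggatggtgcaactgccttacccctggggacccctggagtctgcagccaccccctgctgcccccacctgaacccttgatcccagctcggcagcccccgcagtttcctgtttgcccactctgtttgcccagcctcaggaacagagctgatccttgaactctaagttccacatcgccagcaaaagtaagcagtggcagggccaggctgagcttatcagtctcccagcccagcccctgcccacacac
Apoa4, chr9:46240594-46240893: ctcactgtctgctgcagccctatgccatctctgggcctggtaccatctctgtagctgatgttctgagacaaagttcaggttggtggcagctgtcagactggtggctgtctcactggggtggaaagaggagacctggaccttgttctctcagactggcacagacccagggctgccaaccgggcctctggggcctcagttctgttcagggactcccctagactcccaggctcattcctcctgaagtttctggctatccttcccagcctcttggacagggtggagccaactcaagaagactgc

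The Apoa5 window held TATAAA with its first base at -31 and CACGTG, the palindromic E-box, with its first base at -82 relative to the start site. From the other listed start site, which is the start of the deposited gene, these first bases were at -56 and -107. The windows of Apoa1 and Apoa4 held no match. Their start sites (46228630 and 46240844) lie inside the deposited genes, so part of each window before the start site is gene sequence. Searched on both strands, TATAAA occurred in 13.6% and CACGTG in 7.15% of 32851 promoter windows of the same length. The other motifs were AGGTCA (16.3%), CCAAT (37.4%), TGACGTG (2.01%), TGACGTCA (1.79%, which begins with the same letters as TGACGTG), a direct repeat of the AGGTCA half-site with a 1-base spacer (0.0396%) and the endoplasmic reticulum stress response element (0.119%). The repeat contains the half-site and the stress response element contains CCAAT. These are letter matches only and say nothing about binding.

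Apoa1 (ENSMUSG00000032083, chromosome 9 from 46228580 to 46230466, plus strand), which encodes the principal protein of high density lipoprotein, was at 9703, 8406 and 8796 CPM in WT and 9836, 11485 and 9741 CPM in S100a16KO+/-. All S100a16KO+/- values were above the WT values. In FPKM the gap was wider, with WT at 6276 to 6659 and S100a16KO+/- at 7272 to 7876. In CPM the nearest libraries were close together, and the highest of each genotype were WT replicate 1 and S100a16KO+/- replicate 2. The log2 fold change of 0.21 (SE 0.07, +15.5%, 95% interval 3.82 to 28.4%) missed the threshold with an adjusted p of 0.0538. It passed in 9 of 17 alternative fits, among them DESeq2 (0.20, adjusted p = 0.0108) and the fits without WT replicate 1 (0.27, 0.0213), S100a16KO+/- replicate 1 (0.24, 0.0485) or S100a16KO+/- replicate 3 (0.25, 0.0393). It was smaller without S100a16KO+/- replicate 2 (0.13, 0.111), WT replicate 2 (0.16, 0.187) or WT replicate 3 (0.19, 0.160). Leaving out both libraries that stood apart gave 0.18 with an adjusted p of 0.000407.

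Apoa4 (ENSMUSG00000032080, 46240696 to 46243459, plus strand) had 2556, 2459 and 2386 CPM in WT and 2233, 2383 and 2154 CPM in S100a16KO+/-. In FPKM the gap was wider, with WT at 1194 to 1250 and S100a16KO+/- at 1106 to 1124. In CPM the S100a16KO+/- values also all lay below WT, although S100a16KO+/- replicate 2 and WT replicate 3 nearly met. In the fit this gave -0.13 on the log2 scale (SE 0.05, adjusted p = 0.0749, 95% interval -15.0 to -1.64%), which became -0.17 (adjusted p = 0.0139) without S100a16KO+/- replicate 2 and -0.15 (0.00828) without both libraries that stood apart. It was -0.10 without WT replicate 1 (0.270) or S100a16KO+/- replicate 3 (0.253), and DESeq2 called it at -0.13 (0.0332). An antisense transcript, Gm10680, of whose exonic bases 90.0% are shared with Apoa4, was erratic within both genotypes, at 2, 588 and 575 counts in WT and 4, 786 and 229 counts in S100a16KO+/-. The strand setting of the counting is not given in the sources used here, so its reads and those of Apoa4 may not be separable.

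Apoc3 (ENSMUSG00000032081, 46232933 to 46235636, minus strand), the lipase inhibitor, stands between Apoa1 and Apoa4. Its values of 1206, 1210 and 1270 CPM in WT and 1277, 1253 and 1227 CPM in S100a16KO+/- overlapped, with a log2 fold change of 0.03 (SE 0.04, adjusted p = 0.731). The 95% interval of -4.61 to 8.85% bounds the size of any difference in these libraries, and with WT replicate 1 or both libraries that stood apart left out the value was 0.01.

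Within a library, the ratio of Apoa5 to Apoa1 in FPKM was 0.0837, 0.0970 and 0.0916 in WT and 0.148, 0.128 and 0.149 in S100a16KO+/-, 1.56-fold higher. The ratio of Apoa4 to Apoa1 was 0.179, 0.199 and 0.185 in WT and 0.155, 0.141 and 0.151 in S100a16KO+/-, a fold of 0.793. Neither ratio overlapped between genotypes, and each had the smallest possible exact permutation p of 0.1 (0.3 after adjustment over 6 ratios). For Apoc3 to Apoa1, Apoc1 to Apoe, Apoc2 to Apoe and Mttp to Apob the folds were 0.884, 0.944, 0.877 and 1.06, with exact permutation p of 0.3 to 0.8. These small differences depended on single libraries. On the log2 scale, Apoc3 to Apoa1 went from -0.18 to -0.10 and Apoc1 to Apoe from -0.083 to -0.00050 without S100a16KO+/- replicate 2. Apoc1 to Apoe was also -0.14 without WT replicate 1, -0.13 without S100a16KO+/- replicate 3 and -0.019 without WT replicate 3. Apoc2 to Apoe turned from -0.19 to 0.043 without WT replicate 2, and was -0.34 without WT replicate 1. Mttp to Apob went from 0.090 to 0.047 without S100a16KO+/- replicate 2 and to 0.15 without S100a16KO+/- replicate 3. With both libraries that stood apart left out, Apoc2 to Apoe was -0.38 and Mttp to Apob 0.034.

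Around this cluster, 2 of 7 listed neighbours passed (28.6%, against 22.8% of all genes tested). Zpr1, a zinc finger gene whose start is 44.5 kb from that of Apoa1 and just beyond Apoa5, rose from 42.4 to 58.3 CPM (log2 fold change 0.46, SE 0.07, adjusted p = 0.000182). Pcsk7, a proprotein convertase, fell by 0.27 on the log2 scale (adjusted p = 0.0286), which was lost without WT replicate 2 (0.0540), WT replicate 3 (0.152), S100a16KO+/- replicate 2 (0.0649) or S100a16KO+/- replicate 3 (0.0854). Bud13, next after Zpr1, had a log2 fold change of 0.29 and Sik3, on the far side of Apoa1, of 0.14 (adjusted p = 0.306 and 0.144).

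**Figure D3:**
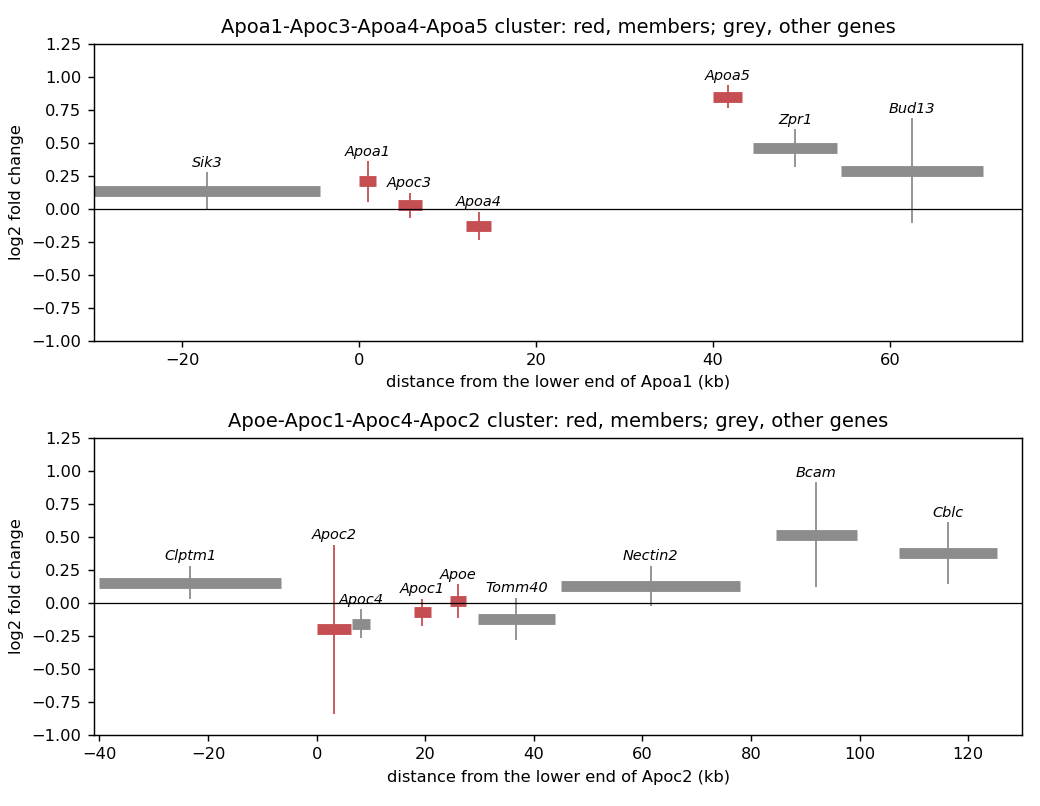
Log2 fold change, S100a16KO+/- against WT, of genes along the chromosome 9 cluster and the chromosome 7 cluster, against distance (kb) from the lower end of a member gene, with bars for the 95% interval. On chromosome 9 the values of Apoa1 (0.21), Apoc3 (0.03) and Apoa4 (-0.13) lie near 0 and those of Apoa5 (0.85) and Zpr1 (0.46) above it.

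The chromosome 7 cluster holds Apoe, Apoc1, Apoc4 and Apoc2, all on the minus strand. Apoe (ENSMUSG00000002985, 19696109 to 19699188), the remnant ligand and the most abundant member, read 21173, 19305 and 19219 CPM in WT and 19540, 21988 and 18796 CPM in S100a16KO+/-. The genotypes overlapped throughout, and the highest libraries were again WT replicate 1 and S100a16KO+/- replicate 2. The log2 fold change was 0.02 (SE 0.06, adjusted p = 0.893, 95% interval -7.38 to 10.3%), and its sign turned without S100a16KO+/- replicate 2 (-0.05), WT replicate 2 (-0.01) or WT replicate 3 (-0.01). It was 0.06 without WT replicate 1 and -0.01 without both libraries that stood apart.

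Apoc1 (ENSMUSG00000040564, 19689481 to 19692660), which slows lipolysis and remnant uptake, had 1604, 1590 and 1733 CPM in WT and 1602, 1529 and 1562 CPM in S100a16KO+/-. The ranges overlapped, WT replicate 3 was the highest, and the log2 fold change was -0.07 (SE 0.05, adjusted p = 0.336), or -0.03 without that library.

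Apoc2 (ENSMUSG00000002992, 19671579 to 19677941), the cofactor of lipoprotein lipase, was the least even member, at 123, 191 and 123 CPM in WT and 126, 146 and 108 CPM in S100a16KO+/-. WT replicate 2 was the highest, followed by S100a16KO+/- replicate 2, and the genotypes overlapped. The log2 fold change of -0.20 (SE 0.24, adjusted p = 0.652, 95% interval -44.2 to 36.0%) became 0.04 without WT replicate 2, -0.31 without WT replicate 1, WT replicate 3 or S100a16KO+/- replicate 2, -0.10 without S100a16KO+/- replicate 3 and -0.42 without both libraries that stood apart. A second gene model on the same strand, Gm44805 (19671584 to 19681423), shares 84.4% of its exonic bases with Apoc2 and the other 15.6% with Apoc4. Its counts were 8506, 287 and 6611 in WT and 5304, 7297 and 6679 in S100a16KO+/-, so it was lowest in the library where Apoc2 was highest. With the counts of both models added, the values were 16898, 13720 and 15010 in WT and 14034, 16673 and 14490 in S100a16KO+/-, and WT replicate 2 no longer stood out as high. The sum gave 220.6 ± 26.3 CPM in WT and 221.0 ± 33.2 CPM in S100a16KO+/- (log2 fold change 0.00, SE 0.13, adjusted p = 0.990). This sum was added after the data were seen, and the level of Apoc2 alone is uncertain because the counting could assign shared reads to either model.

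**Figure D4:**
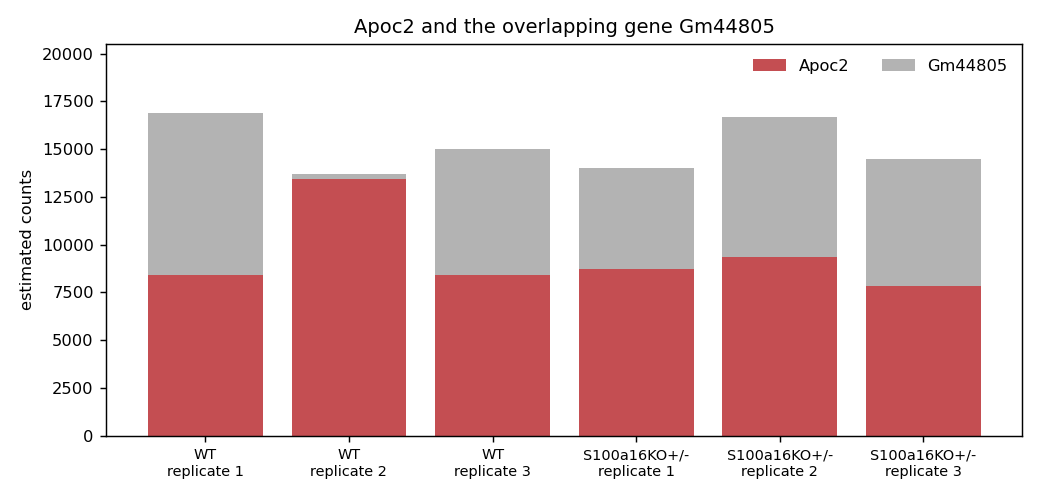
Estimated counts of Apoc2 (lower part of each bar) and the overlapping model Gm44805 (upper part) in the 6 libraries. Gm44805 has 287 counts in WT replicate 2 and 5304 to 8506 in the others, while the whole bar spans 13720 to 16898.

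Apoc4, the remaining apolipoprotein of this cluster, fell from 542.9 to 486.6 CPM (log2 fold change -0.16, SE 0.05, adjusted p = 0.0377). This call was lost (adjusted p of 0.0726 to 0.145) in every fit with 1 library left out except that without S100a16KO+/- replicate 2, and with the counts of Apoc2, Gm44805 and Apoc4 added the value was -0.11 (adjusted p = 0.229). Of 8 listed genes in and around the cluster that are not members, 3 passed, namely Apoc4, Bcl3 and Cblc (37.5%, against 22.8% of all genes tested). Clasrp and Gm44805, tested but not on that list, did not pass (adjusted p = 0.742 and 0.888). Bcl3, an IkappaB-family regulator, fell from 14.8 to 5.10 CPM (-1.54, adjusted p = 4.93e-07). Cblc, an E3 ubiquitin ligase gene, rose by 0.38 (adjusted p = 0.0229), which was lost without WT replicate 2 (0.0923), WT replicate 3 (0.0538), S100a16KO+/- replicate 2 (0.0592) or S100a16KO+/- replicate 3 (0.0888). Without both libraries that stood apart, Cblc was at 0.40 and also missed the threshold (adjusted p = 0.0508).

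Apoa2 (ENSMUSG00000005681, chromosome 1 from 171225054 to 171226379, plus strand), the second protein of high density lipoprotein, had 5204, 4522 and 4865 CPM in WT and 4426, 4916 and 4203 CPM in S100a16KO+/-. On this scale, the highest library of each genotype, WT replicate 1 and S100a16KO+/- replicate 2, made the ranges overlap. In FPKM the ranges did not overlap, at 7770 to 8229 in WT and 7296 to 7759 in S100a16KO+/-, but the nearest libraries nearly met. The log2 fold change of Apoa2 in the fit was -0.11 (SE 0.06, adjusted p = 0.259), and it depended on single libraries. It was -0.06 without WT replicate 1 (adjusted p = 0.651) or S100a16KO+/- replicate 3 (0.628), passed at -0.17 (0.0355) without S100a16KO+/- replicate 2, and was -0.13 (0.0317) without both libraries that stood apart.

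In TMM-scaled CPM, Apoa1, Apoa2, Apoa4 and Apoe stood high in both libraries that stood apart. WT replicate 1 was above the mean of the other WT libraries by 12.8%, 10.9%, 5.53% and 9.92% for these genes, and S100a16KO+/- replicate 2 above its own by 17.3%, 13.9%, 8.65% and 14.7%. Apoa5 deviated by 0.269% and 1.44% and Apob by -0.527% and -3.22%. These deviations depended on the scale. In FPKM, Apoa1 and Apoe were still highest in both libraries, and Apoa2 in S100a16KO+/- replicate 2 only. Apoa4 was not: WT replicate 1 had 1195 FPKM against 1250 and 1194, and S100a16KO+/- replicate 2 had 1113 against 1124 and 1106. Apoa5 was lowest of its genotype in both libraries, at 557.6 and 1012 FPKM. The mitochondrial share of counts was 21.1% and 20.1% in these libraries and 17.0 to 18.6% in the others, and its part in the members' values was not tested.

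Apob (ENSMUSG00000020609, chromosome 12 from 7977648 to 8016835, plus strand), the VLDL scaffold, had 5528, 5587 and 5527 CPM in WT and 5235, 5047 and 5194 CPM in S100a16KO+/-. The S100a16KO+/- libraries all lay below WT on this scale, while in FPKM, which has no TMM scaling, the ranges of 336.5 to 370.0 and 307.0 to 347.5 overlapped. Its log2 fold change was -0.10 (SE 0.04, adjusted p = 0.0749, 95% interval -12.4 to -1.34%), and it passed in DESeq2 (-0.11, adjusted p = 0.0387) and without both libraries that stood apart (-0.10, 0.0400).

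Mttp (ENSMUSG00000028158, chromosome 3 from 138089854 to 138143388, minus strand), which loads lipid onto ApoB, read 342.1, 360.2 and 346.8 CPM in WT and 358.2, 359.7 and 321.8 CPM in S100a16KO+/-. The ranges overlapped, S100a16KO+/- replicate 3 was lowest, and the log2 fold change of -0.01 (SE 0.05, adjusted p = 0.902) had a 95% interval of -8.59 to 7.45%. Its sign turned without WT replicate 2 (0.01) or S100a16KO+/- replicate 3 (0.04). It was -0.04 without S100a16KO+/- replicate 2, -0.03 without WT replicate 1 and -0.06 without both libraries that stood apart.

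Of 16 further genes of VLDL assembly and secretion, 4 rose, 5 fell and 7 did not pass, with a median log2 fold change of -0.08. The called share was 56.3%, against 22.8% of all genes tested. Among all genes averaging at least 32 CPM, a level that some of the listed genes did not reach, it was 48.4%. P4hb, the disulfide isomerase subunit that forms the transfer complex with Mttp and also folds many other secretory proteins, rose from 1242 to 1822 CPM (0.55, SE 0.04, adjusted p = 4.77e-07). Surf4, a cargo receptor for lipoprotein export from the endoplasmic reticulum, rose from 174.7 to 245.4 CPM (0.49, SE 0.05, adjusted p = 1.29e-05). Ces1d, the carboxylesterase that mobilises stored triglyceride for VLDL, fell from 816.7 to 361.3 CPM (-1.18, SE 0.06, adjusted p = 4.76e-09). Smlr1, also linked to VLDL secretion, fell from 14.5 to 10.03 CPM (-0.53, SE 0.11, adjusted p = 0.00366).

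The Apob mRNA is edited in mouse liver to a form that encodes the shorter ApoB48. A1cf, the RNA-binding partner of the editing enzyme, fell from 78.2 to 62.8 CPM (-0.31, SE 0.05, adjusted p = 0.000685). Apobec1, the deaminase itself, was at 6.19 and 6.88 CPM (0.15, SE 0.12, adjusted p = 0.436). The gene-level counts do not show the edited share.

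Among 15 further genes named or grouped as apolipoproteins, 2 rose, 6 fell and 7 did not pass (median -0.13). The called share was 53.3%, against 22.8% of all genes tested and 48.4% of those averaging at least 32 CPM. Apol7a fell by 0.67 on the log2 scale, Apon by 0.44, Apoo by 0.36 and Apof, an inhibitor of lipid transfer, by 0.21 (adjusted p of 4.95e-07, 1.83e-05, 0.0228 and 0.00338). Despite its name, Apoo encodes a subunit of the mitochondrial cristae complex, and its call was lost in the fits without WT replicate 1 (0.0531), WT replicate 3 (0.103), S100a16KO+/- replicate 1 (0.0743) or S100a16KO+/- replicate 2 (0.0748). Without both libraries that stood apart, Apoo was at -0.32 and also missed the threshold (adjusted p = 0.0903). The 8 calls became 3 without S100a16KO+/- replicate 1, 4 without WT replicate 3 and 5 without WT replicate 1 or 2.

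Of 18 genes of lipoprotein remodelling and uptake, 7 rose, 5 fell and 6 did not pass (median 0.08). The called share was 66.7%, against 22.8% of all genes tested and 48.4% of those averaging at least 32 CPM. Scarb1, the receptor for high density lipoprotein, rose from 142.0 to 244.6 CPM (0.78, adjusted p = 4.18e-07). Abcg5, of the biliary sterol exporter, rose from 74.9 to 134.6 CPM (0.85, adjusted p = 5.41e-08), and Abcg1, which exports cholesterol to high density lipoprotein, from 4.09 to 7.28 CPM (0.83, adjusted p = 0.000471). Lipg, endothelial lipase, fell from 4.94 to 2.42 CPM (-1.03, adjusted p = 0.000602).

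Of 27 genes that encode regulators of apolipoprotein transcription, 3 rose, 15 fell and 9 did not pass (median -0.25). The called share was 66.7%, against 22.8% of all genes tested and 48.4% of those averaging at least 32 CPM. Ppargc1a, a coactivator of nuclear receptors, rose from 6.81 to 26.5 CPM (1.96, adjusted p = 2.44e-09). Foxa3, a liver forkhead factor, fell from 35.4 to 14.8 CPM (-1.26), Nr0b2, a corepressor of nuclear receptors, from 43.6 to 22.7 CPM (-0.94) and Srebf1, the lipogenic factor, from 198.9 to 107.5 CPM (-0.89), with adjusted p of 1.52e-08, 9.90e-08 and 1.45e-08.

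**Figure D5:**
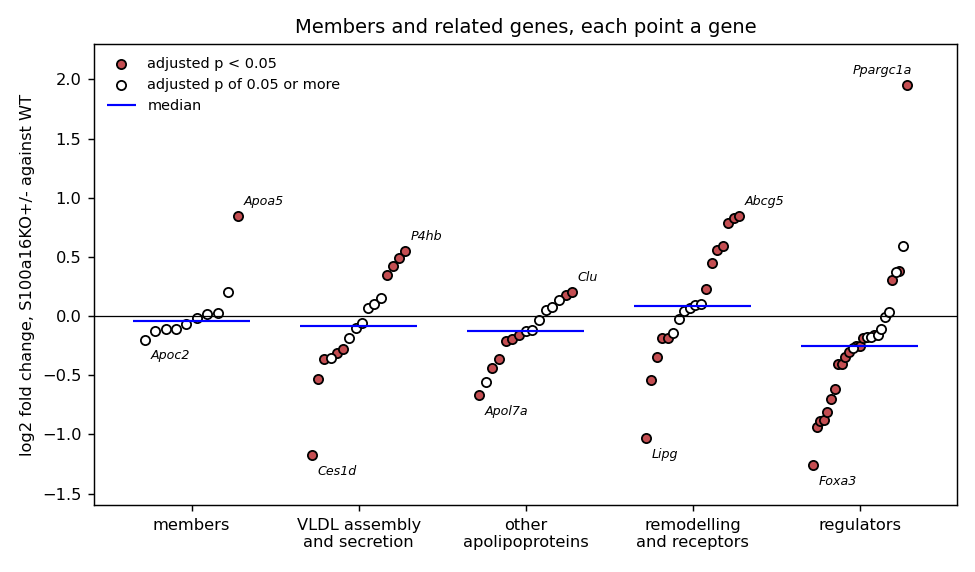
Log2 fold change, S100a16KO+/- against WT, of the members and of the genes of VLDL assembly, other apolipoproteins, remodelling and uptake, and regulators, each point being a gene. The members lie between -0.20 and 0.85, while the regulators span -1.26 to 1.96.

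The genes with CPM profiles most like that of Apoa5 over the 6 libraries, among 2780 genes of at least 32 CPM, were Stx5a, a Golgi SNARE (Pearson r = 0.9998), F11, coagulation factor XI (0.9997), and Manf, a secreted protein of the endoplasmic reticulum (0.9997). The 6 points form 2 genotype groups, so r mostly reflects the genotype contrast, and 360 genes exceeded 0.95.

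Markers of other liver and blood cells differed between the genotypes, and in bulk RNA fewer cells of a type and less RNA per cell cannot be told apart. Over all genes tested, 11.6% passed as higher and 11.2% as lower. Kupffer and macrophage markers, from cells that also express Apoe, summed to 160.5 to 189.2 CPM in WT and 188.8 to 205.9 CPM in S100a16KO+/-, with 4 of 12 higher and 0 lower. Sinusoidal endothelial markers summed to 234.7 to 247.4 and 343.3 to 354.0 CPM (7 of 8 higher, 1 lower), and stellate markers to 40.2 to 44.1 and 71.5 to 79.2 CPM (4 of 8 higher). Cholangiocyte markers were near the detection limit at 4.50 to 6.38 and 4.89 to 5.22 CPM (1 of 4 lower), with Krt19 at 0 in WT replicate 2 and Krt7 at 0 in S100a16KO+/- replicate 2. Blood cell markers summed to 225.3 to 259.5 CPM in WT and 34.4 to 36.4 CPM in S100a16KO+/- (5 of 10 lower). All 5 that fell are erythroid, namely Alas2 of haem synthesis and the globin genes Hbb-bt, Hba-a2, Hbb-bs and Hba-a1. The leukocyte markers S100a8 (0.83), Cd79a (0.39), S100a9 (0.27), Ptprc (0.23) and Cd3e (-0.78, at 0 in S100a16KO+/- replicate 1) did not pass. Of 9 hepatocyte markers, 1 was higher and 2 lower. The part of these cells in the members' values was not tested.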

How the data were processed

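Per the labels, RNA of 6 hepatocyte samples was sequenced as paired reads from strand-marked libraries with molecular identifiers in the adapters. The submitters' processing notes name cutadapt 1.9, HISAT2 2.0.4, UMI-tools, StringTie 1.3.4d, DESeq2, edgeR and mm10. Whether duplicates were removed by identifiers is not given in the sources used here. For each gene, the table deposited by the authors gives every library's estimated count and its FPKM. For a gene, FPKM is a fixed multiple of the count within a library, and 1 fragment was worth about 4 counts, so low values are less precise than the counts imply.

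Estimated counts were rounded and tested in R 4.3.3 with edgeR 4.0.16 (TMM scaling, filterByExpr, robust quasi-likelihood fit, genotype as the only term, two-sided). Adjusted p-values (Benjamini-Hochberg) cover all 15957 genes, and intervals are 95% intervals of the fit. DESeq2, which the study's methods name without a version, was run as an alternative (version 1.42.0), as were limma 3.58.1 on counts and on FPKM, other scalings and filters, a block for replicate number and the removal of each library in turn. Positions are as deposited: of 25655 identifiers found in GENCODE M21, 89.7% had the same start and end, including 9 of the 10 members but not Mttp. RefSeq promoter windows matched 8 of the 10.

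The members and gene lists were chosen with earlier results of these data known. Genes named beside the members are P4hb, Apobec1, A1cf, S100a16, up to 4 genes per list with an adjusted p under 0.05 and the largest absolute log2 fold change, and the 3 genes most like Apoa5. Antisense and overlapping gene models, Bud13, Sik3 and the blood cell genes were named after their values were seen. The marker Tf was not found by that name, and Krt7 did not pass the filter.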

Additional observations from a re-analysis of the deposited data

How the results depend on the processing

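Apoa5 was the single member called in all 17 alternative fits. Leaving out 1 library at a time gave 1 to 3 members called (1 to 2 higher, 0 to 2 lower). There were 2 calls, both higher, with a mean of at least 1 CPM, limma voom, limma on log2(FPKM + 1) or log2(FPKM + 0.1), and counts divided by 4. DESeq2 gave 4 (2 higher, 2 lower), and the joint removal of WT replicate 1 and S100a16KO+/- replicate 2, chosen after seeing the data, gave 5 (2 higher, 3 lower). Signs reversed for some genes and a ratio, none of them past the threshold. With 1 library left out, Apoc2 (-0.20 with all libraries) ranged from -0.31 to 0.045 (above 0 without WT replicate 2), Apoe from -0.054 to 0.061 (below 0 without WT replicate 2, WT replicate 3 or S100a16KO+/- replicate 2), Mttp from -0.041 to 0.037 (above 0 without WT replicate 2 or S100a16KO+/- replicate 3) Gm44805 (0.33 with all libraries) from -0.23 to 0.91 (below 0 without WT replicate 2) and the ratio of Apoc2 to Apoe from -0.34 to 0.043 (above 0 without WT replicate 2). Under the joint removal Apoe was -0.01 and Mttp -0.060, and the ratio was -0.38. With all libraries kept, Apoc2 with Gm44805 added was 0.0031. The cause was not tested. The share of all counts held by the members differed by 2.94% once mitochondrially encoded genes were left out. Counts in the lists ranged, with 1 library left out, and under the joint removal, over 3 to 8 (other apolipoproteins), 1 to 2 (chromosome 9 neighbours) and 1 to 2 (chromosome 7 neighbours). Both limma fits on FPKM called 5 other apolipoproteins, 6 remodelling genes, 1 chromosome 9 neighbour, 2 stellate and 0 cholangiocyte markers, and 2228 and 2208 genes in all against 3643 in edgeR, after a filter on mean FPKM of at least 1. Of the 27 named genes outside the member list, 23 kept their call in each of the 17 fits that tested them. Lipg and Abcg1, among these, were below the FPKM filter and so not tested in the limma fits on FPKM.

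Equal replicate numbers did not pair the samples: deviations of same-numbered libraries correlated at -0.42, -0.28 and -0.01. With the replicate block, 1 member, 4 other apolipoproteins and 1 chromosome 9 neighbour were called, and Apoc4 (adjusted p = 0.0994) and Pcsk7 (adjusted p = 0.0564) were lost.

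With 3 libraries per genotype, an exact permutation test of a single value cannot reach p under 0.05. The intervals cover the spread between these libraries only.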
